A study of Mus musculus with 20 samples.

Results

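The comparison described here is that of lungs from mouse dams given the high dose of carbon black with lungs from dams given water. Its members are the arrays titled High or Control, 5 of each, which make 10 of the 20 arrays of the series. All dams were female C57BL/6BomTac mice that had been mated at known times. The high-dose dams received 67 µg of Printex 90, an industrial carbon black made of nanosized particles, at each of 4 instillations into the trachea, for a total of 268 µg, which by the design text were on days 7, 10, 15 and 18 of gestation. The control dams received the vehicle, Milli-Q water, on the same plan, so that pregnancy, lactation and the instillation itself are shared by both groups. Lungs were taken after the litters had been weaned, 26 to 27 days after exposure, and each dam is 1 sample. Labelled lung RNA was hybridised in Cy5 against a universal mouse reference RNA in Cy3, and every value below is M, the log2 of lung over reference. A level of M depends on the reference, so M is compared between dams for the same gene and never between genes.

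Carbon black particles that reach the alveoli are taken up mainly by alveolar macrophages, the resident phagocytes of the airspaces, and are cleared from the lung slowly. Injured or activated epithelium and macrophages release chemokines, which draw neutrophils and monocytes into the tissue, and acute phase proteins such as serum amyloid A, which the lung can make itself. The other leukocytes of the lung include natural killer cells, plasmacytoid dendritic cells, eosinophils, B cells and the plasma cells that secrete antibodies.

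On the 10 arrays 68.7% to 78.3% of probes had a Cy5 signal well above background, 72% ± 3.78 (SD, n = 5) in controls and 73.4% ± 3.41 in high-dose dams, and any 2 of the arrays correlated at 0.954 to 0.987 in M across genes. The number of arrays limits the precision. Each of slides 1 to 5 held 1 control and 1 high-dose array. The control was always at the first position and the high-dose array at the fourth, so position and group cannot be told apart. Markers of type 1, type 2 and endothelial cells were well above background in both groups. Among the controls, dam 14 stood apart in markers of tissues. Its 18 heart muscle markers had a mean M of 0.22, against 1.71 to 2.27 in the other controls and 0.89 to 2.50 in high-dose dams, and its 20 type 2 cell markers had a mean of 3.48, against 2.90 to 3.05. Elsewhere in the series the heart muscle mean was also low in low-dose dam 31 (0.41) and medium-dose dams 47, 48, 49 and 50 (0.59, 0.37, 0.32 and 0.21). In the remaining low-dose and medium-dose dams it was 1.28 to 2.4. Fat and mammary gland markers, 8 in number, ranged from 1.26 to 2.57 in controls and from 0.78 to 3.49 in high-dose dams, with dam 65 the highest. The part of these tissues in the results was not tested, and counts without each dam are given below.

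At the high dose 38 of 19914 genes rose (0.191%) and 27 fell (0.136%) by limma with Benjamini-Hochberg adjustment at a threshold of 0.05. These are the genes referred to below as having passed. The spread behind these counts was estimated over all 20 arrays of the series, low and medium doses included. With the 10 control and high-dose arrays alone, 0 genes rose and 1 fell at the same threshold. The rises were the larger changes: 20 of the 38 exceeded 1.5-fold and 11 exceeded 2-fold, with a median of 1.55-fold and a maximum of 8.32-fold, whereas 5 of the 27 falls exceeded 1.5-fold and 0 exceeded 2-fold. Chemokines, acute phase proteins, myeloid receptors and antibody transcripts were among the rises, and receptors of natural killer cells were among the falls. Of 23 alveolar macrophage markers 2 fell, Siglecf and Ear6, with a median of -0.03 over the list. The same 2 fell among 13 eosinophil and mast cell markers (median -0.02). Siglech, of plasmacytoid dendritic cells, was the 1 of 18 dendritic cell markers that fell (median -0.01). At an unadjusted p under 0.05, 1315 genes (6.6%) were higher and 1267 (6.36%) lower. The median over all genes was -0.0017, and 49.3% of genes were above 0. All 5 high-dose dams lay above all 5 controls for 239 genes (1.2%) and below them for 275 (1.38%), and this held for 29 of the 38 rises and 22 of the 27 falls.

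**Figure D1:**
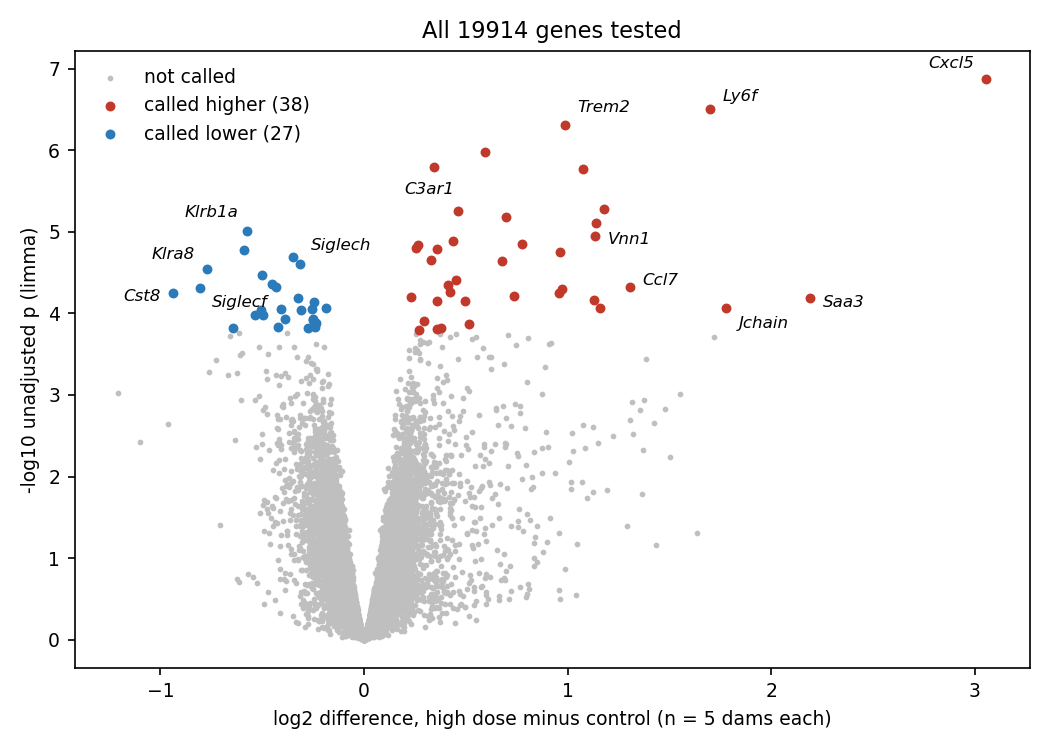
The log2 difference between high-dose and control dams (x axis) is plotted against the -log10 of the unadjusted limma p (y axis) for 19914 genes, with the 38 genes called higher in red, the 27 called lower in blue and the others in grey. The rises reach 3.06 on the log2 scale in Cxcl5, and the largest called fall is -0.94 in Cst8.

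The high-dose dams differed among themselves. Over the 38 genes that rose, the median difference from the mean of the controls was 0.33 in dam 60, 0.49 in dam 64, 0.69 in dam 65, 0.80 in dam 62 and 0.81 in dam 63. Dam 60 was the nearest to the controls for 18 of the 38 genes, and dam 63 was the farthest for 18. Over the 27 falls the 5 dams lay closer together, with medians of -0.30 to -0.43. The counts moved with single dams. Without high-dose dam 60, 90 genes rose and 60 fell. Without high-dose dam 62 the counts were 8 and 1, without dam 63 they were 13 and 4, and without dam 65 they were 17 and 3. Without dam 64, 47 rose and 14 fell. Among controls, leaving out dam 15 left 7 rises and 2 falls, leaving out dam 18 left 7 and 0 (with 1120 and 1067 at an unadjusted p under 0.05), and leaving out dam 7 left 23 and 9. Without control 14 there were 41 and 12, and without control 4 there were 39 and 31. Cxcl5, Ly6f, Trem2, the antibody transcript M19902 and the transcript LOC668423, described below, passed in each of the 10 omissions.

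Chemokines had the largest change among the genes that passed. Cxcl5, an epithelial chemokine that attracts neutrophils, rose 8.32-fold, Ccl7, which attracts monocytes, rose 2.48-fold and Ccl20, which attracts dendritic cells and lymphocytes through CCR6, rose 1.36-fold. The Cxcl5 probe lies at chr5:90732453-90732512 in the build mm7 of the file headers. M of Cxcl5 was -3.64, -3.34, -3.31, -3.26 and -3.00 in the 5 controls and -1.56, -1.38, -0.40, 1.00 and 1.07 in the high-dose dams. The lowest high-dose dam thus lay far above the highest control, and the high-dose group was widely spread. The difference was 3.06 ± 0.38 (log2, SE from the spread pooled over all 4 groups, n = 5 per group, adjusted p = 0.0027). Within the 5 slides it was 1.75 to 4.41. M of Ccl7 was -3.72, -3.56, -3.53, -3.14 and -2.96 in controls and -2.78, -2.50, -2.10, -2.10 and -0.88 in high-dose dams. The groups did not overlap, but dam 60 was close to the highest control, and the difference was 1.31 ± 0.25 (adjusted p = 0.0315). Ccl20 was well above background on 0 of 5 control and 4 of 5 high-dose arrays, which puts its Cy5 signal, a bound between the brighter and the dimmer group, at least 1.29-fold higher. In M it differed by 0.44 ± 0.08 (adjusted p = 0.0184), also without overlap. Ccl7 was not called without high-dose dam 62 or 65 or control 14, 15 or 18, and Ccl20 was not called without high-dose dam 62 or 63 or control 15 or 18.

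Of 6 measured chemokines that attract neutrophils, 1 rose and 5 were above 0, with a median of 0.43. Of these 6, 1 was well above background on at least 3 high-dose arrays but not on 3 control arrays. It could be kept by the brightness filter through the high-dose group. Over the other 5, 4 were above 0, with a median of 0.32. Of 11 CC chemokines for monocytes and dendritic cells, 2 rose and 11 were above 0, with a median of 0.68, and their mean per dam was -0.77 to -0.33 in controls and -0.16 to 0.79 in high-dose dams. Ccl20, 1 of the 11, could likewise be kept through the high-dose group. Over the other 10, 10 were above 0, with a median of 0.69. Among the members that did not pass were Ccl8 and Ccl12, which attract monocytes, with differences of 1.32 ± 0.35 (adjusted p = 0.12) and 0.91 ± 0.20 (adjusted p = 0.0562), and the neutrophil chemokines Cxcl1 at 1.15 ± 0.35 (adjusted p = 0.174) and Cxcl3 at 0.55 ± 0.12 (adjusted p = 0.0523). The dams overlapped for Ccl8, Ccl12, Cxcl1 and Cxcl3. Of 12 lymphocyte chemokines 0 passed by limma (1 higher and 1 lower at an unadjusted p under 0.05, the sense of unadjusted counts below), with a median of 0.12. Cxcl10, which is induced by interferon, differed by 0.88 ± 0.23 (adjusted p = 0.113) and Ccl5, which natural killer and T cells secrete, by -0.50 ± 0.15 (adjusted p = 0.175).

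**Figure D2:**
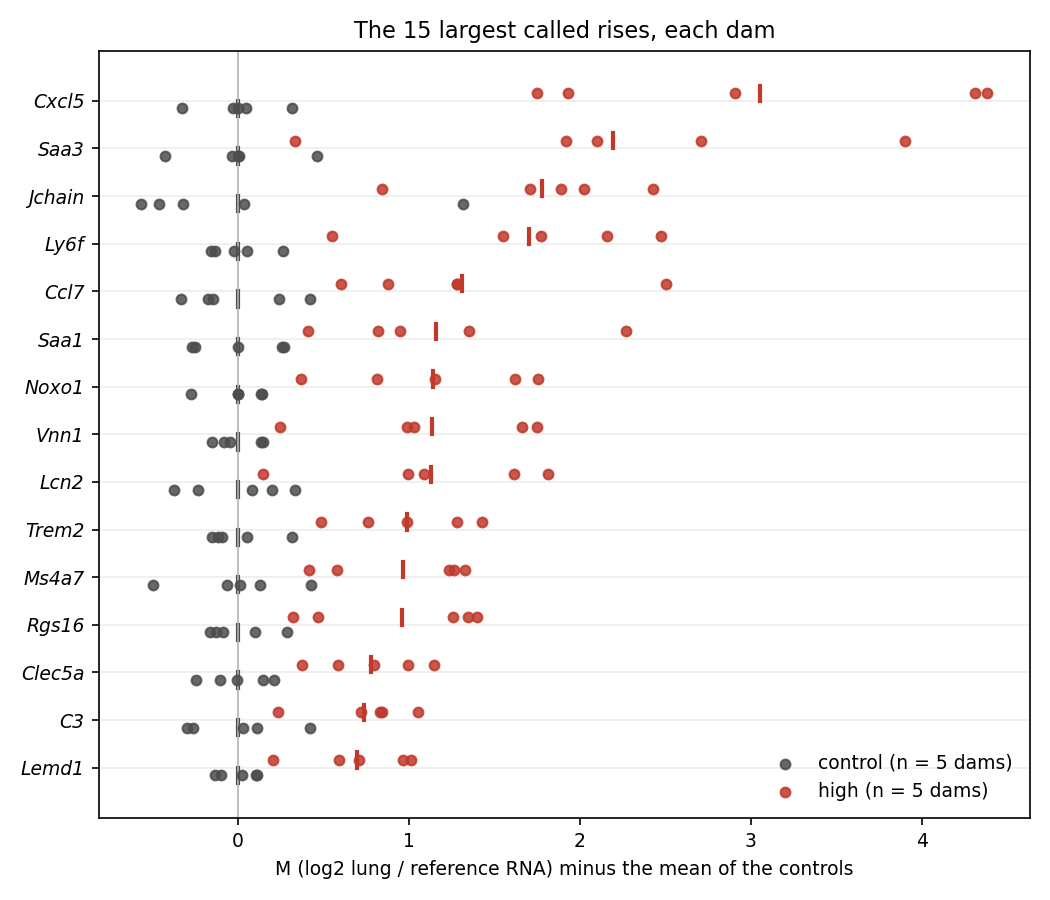
M minus the mean of the controls (x axis, log2) is shown for the 15 largest called rises with a symbol, 1 point per dam, with controls in grey, high-dose dams in red and short bars for the group means. The spread among the 5 high-dose dams exceeds that of the controls for Cxcl5, and 1 control lies among the high-dose dams for Jchain.

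Acute phase proteins, secreted in quantity during inflammation, came next. Of 24 measured, 4 rose, 0 fell and 22 were above 0, with a median of 0.39, and their mean per dam was 0.32 to 0.65 in controls and 0.72 to 1.24 in high-dose dams. Of the 24, 2 were well above background on at least 3 high-dose arrays but not on 3 control arrays. Over the other 22, 20 were above 0, with a median of 0.44. M of Saa3, the serum amyloid A of macrophages and epithelium, was -2.73, -2.34, -2.31, -2.30 and -1.84 in controls and -1.97, -0.39, -0.20, 0.40 and 1.60 in high-dose dams. Only dam 60 overlapped with the controls, and the difference was 2.19 ± 0.43 (4.57-fold, adjusted p = 0.0336). Lcn2, which binds bacterial iron carriers, had M of 1.31 to 2.02 in controls and 1.83, 2.67, 2.77, 3.30 and 3.50 in high-dose dams, again with overlap by dam 60, and rose 2.19-fold (log2 1.13 ± 0.22, adjusted p = 0.0338). Saa1, serum amyloid A 1, rose 2.23-fold without overlap (adjusted p = 0.036), and complement component C3 rose 1.67-fold (adjusted p = 0.0336). For Saa1 and C3 the kept probes of the gene differed, by 0.29 and 1.16 and by 0.37 and 0.74, and serum amyloid A genes are alike enough in sequence that their probes may share targets. All 4 calls were lost without high-dose dam 62, 63 or 65 or control 7, 15 or 18. Saa3 and Saa1 were also lost without control 4, and C3 without dam 64.

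The promoters of these 4 genes, and that of Ccl20, are printed, and each holds 1 of the 3 motifs searched below. They are the 250 bases before the start of each gene, 5′ to 3′ on the strand of the gene, from RefSeq on GRCm38.p6. They lie at chr7:46715677-46715926 (Saa3), chr7:46742981-46743230 (Saa1), chr2:32387740-32387989 (Lcn2) and chr17:57228137-57228386 (C3), all on the minus strand, and at chr1:83116516-83116765 (Ccl20) on the plus strand. Capitals mark a C/EBP-type motif, TTGCNNAA, in the first 4 and a match to the NF-kappaB consensus in Ccl20.
Saa3: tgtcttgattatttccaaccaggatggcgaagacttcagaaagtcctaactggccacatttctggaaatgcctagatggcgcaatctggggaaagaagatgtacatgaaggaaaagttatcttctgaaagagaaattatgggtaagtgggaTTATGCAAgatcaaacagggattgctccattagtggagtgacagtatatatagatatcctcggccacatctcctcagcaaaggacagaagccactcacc
Saa1: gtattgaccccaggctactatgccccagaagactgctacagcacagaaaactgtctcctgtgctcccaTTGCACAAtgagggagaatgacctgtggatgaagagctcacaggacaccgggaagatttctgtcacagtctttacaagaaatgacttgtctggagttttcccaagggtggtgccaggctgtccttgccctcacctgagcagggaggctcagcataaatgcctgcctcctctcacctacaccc
Lcn2: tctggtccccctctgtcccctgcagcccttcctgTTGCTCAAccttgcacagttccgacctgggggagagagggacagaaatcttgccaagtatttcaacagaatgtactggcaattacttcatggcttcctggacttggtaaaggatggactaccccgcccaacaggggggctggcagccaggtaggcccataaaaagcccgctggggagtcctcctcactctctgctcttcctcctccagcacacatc
C3: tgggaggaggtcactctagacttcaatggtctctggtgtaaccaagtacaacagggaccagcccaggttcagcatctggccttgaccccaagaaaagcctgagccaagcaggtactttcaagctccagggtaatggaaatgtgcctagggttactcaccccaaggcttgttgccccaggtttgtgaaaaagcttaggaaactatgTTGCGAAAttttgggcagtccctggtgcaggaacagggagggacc
Ccl20: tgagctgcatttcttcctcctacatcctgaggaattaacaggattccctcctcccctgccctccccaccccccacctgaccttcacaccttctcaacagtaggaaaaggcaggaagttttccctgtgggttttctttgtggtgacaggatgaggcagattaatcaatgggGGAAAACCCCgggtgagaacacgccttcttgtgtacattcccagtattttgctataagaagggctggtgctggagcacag
The C/EBP-type motif is 99 bases before the start in Saa3, on the opposite strand, and 182, 216 and 45 bases before it in Saa1, Lcn2 and C3. Both strands were searched for it, for the AP-1 motif TGANTCA and for the NF-kappaB consensus, which were chosen after the called genes were known. Of the 30 called rises with a symbol, 25 had a promoter entry, and 8 of these (32%) held TTGCNNAA. So did 9.56% of the 12369 tested genes with an entry. A gene was counted if any of its entries matched. Besides the 4 printed, the 8 include Ly6f, Csf2, Slc7a11 and Jchain. Of 19 called falls with an entry, 4 (21.1%) held it. TGANTCA was in 3 of the 25 (12%), namely Trem2, C3ar1 and Ms4a7, and in 6.2% of the tested genes with an entry. The NF-kappaB consensus was in 1 of the 25 (4%), Ccl20, and in 10.5% of the tested genes with an entry. Cxcl5, Ccl7 and Vnn1 had no promoter entry and are not among the 25. None of the 5 printed promoters holds more than 1 of the 3 motifs. A match is a run of letters, not a measured site.

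Several receptors of macrophages and other myeloid cells also rose. Trem2, a receptor for lipids that signals through the adaptor DAP12, had M of -1.57, -1.54, -1.51, -1.37 and -1.10 in controls and -0.93, -0.66, -0.43, -0.14 and 0.01 in high-dose dams. The groups were clear of each other, and Trem2 rose 1.98-fold (log2 0.99 ± 0.13, adjusted p = 0.0032), by 0.61 to 1.38 within slides. Its probe lies at chr17:46496865-46496924 (mm7). Clec5a, a lectin receptor of myeloid cells that uses the same adaptor, rose 1.71-fold (log2 0.78 ± 0.14, adjusted p = 0.0184) without overlap, although its 2 kept probes gave 0.17 and 0.78. Ms4a7, a membrane protein of monocyte-derived and interstitial macrophages, rose 1.95-fold (log2 0.96 ± 0.17, adjusted p = 0.0187) and overlapped by high-dose dam 64 and control 14. Dcstamp, which acts in the fusion of macrophages and osteoclasts and was chosen after its values were seen, rose 1.33-fold (adjusted p = 0.0315). Trem2 passed in each omission, whereas Clec5a and Ms4a7 were not called without high-dose dam 62 or 63 or control 15 or 18, Ms4a7 also without dam 65. Dcstamp was lost without high-dose dam 62, 63 or 65 or control 4, 7, 15 or 18.

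In the TREM and DAP12 pathway 2 of 18 measured members rose, with a median of -0.03, and Treml4, a receptor of splenic and blood myeloid cells, differed by -0.48 ± 0.13 (adjusted p = 0.135). Of 25 receptors for lipid and particle uptake 0 passed by limma (unadjusted, 2 higher and 0 lower), with a median of 0.10, and the scavenger receptor Msr1 differed by 0.80 ± 0.20 (adjusted p = 0.0946). Of 26 lysosomal proteins 0 passed by limma (unadjusted, 8 higher and 0 lower) and 22 were above 0, with a median of 0.10. They include the cathepsins Ctsk at 0.62 ± 0.15 (adjusted p = 0.0783) and Ctsc at 0.42 ± 0.09 (adjusted p = 0.0523). Of 19 markers of monocytes and interstitial macrophages 1 rose and 13 were above 0, with a median of 0.28, and 10 were higher and 0 lower at an unadjusted p under 0.05. Their mean per dam was 1.32 to 1.83 in controls, control 14 being the highest, and 1.64 to 2.02 in high-dose dams, and was higher in the high-dose dam on 5 of 5 slides. The calcium-binding protein Aif1 of macrophages differed by 0.41 ± 0.10 (adjusted p = 0.0921). In bulk lung more or fewer cells of a type and more or less RNA per cell cannot be told apart, for these and for all cell markers below.

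Ly6f encodes a small surface protein of the Ly6 family. It had M of 0.25, 0.28, 0.39, 0.47 and 0.68 in controls and 0.96, 1.96, 2.19, 2.57 and 2.89 in high-dose dams. The 2 groups did not overlap, and the gene rose 3.25-fold (log2 1.70 ± 0.22, adjusted p = 0.0031). Its probe lies at chr15:75354580-75354640 (mm7). It was the 1 of 17 measured Ly6 genes that passed, and the median of the 17 was 0.01. The Ly6 genes of the cluster are close copies, so that the identity of the transcript is less sure than its change. Noxo1, the organiser of the epithelial NADPH oxidase NOX1, rose 2.20-fold (log2 1.14 ± 0.19, adjusted p = 0.0154), from 0.35 to 0.77 in controls to 1.00 to 2.38 in high-dose dams. Of 13 measured oxidase subunits Noxo1 was the 1 that passed, the activator subunit Noxa1 differed by 0.63 ± 0.14 (adjusted p = 0.0653) and Nox4, of mesenchymal cells, by -0.48 ± 0.12 (adjusted p = 0.0817). Vnn1, a pantetheinase on epithelial membranes, rose 2.20-fold (log2 1.14 ± 0.19, adjusted p = 0.0184), and Rgs16, which limits signals of G protein-coupled receptors, rose 1.94-fold (adjusted p = 0.0323). Lemd1, a LEM domain protein, was well above background on 0 of 5 control and 4 of 5 high-dose arrays, at least 1.83-fold higher in Cy5 signal, with a difference in M of 0.70 ± 0.11 (adjusted p = 0.0147). For Noxo1, Vnn1, Rgs16 and Lemd1 the groups did not overlap. Noxo1, Vnn1 and Lemd1 were not called without high-dose dam 62 or control 15 or 18, and Rgs16 also not without high-dose dam 63 or 65 or control 14.

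Of 27 complement genes, 1 was well above background on at least 3 high-dose arrays but not on 3 control arrays. Over the other 26, 20 were above 0, with a median of 0.17. Over all 27, 21 were above 0, with a median of 0.15, and 10 were higher and 0 lower at an unadjusted p under 0.05. By limma with adjustment 3 rose. Beside C3 these were C3ar1, the receptor for its fragment C3a (log2 0.46 ± 0.07, adjusted p = 0.0137, no overlap), and C1ra, a protease of the first complement component (log2 0.38 ± 0.08, adjusted p = 0.0484, with overlap), whose 2 probes gave 0.11 and 0.38. C3ar1 was lost only without control 15, at an adjusted p of 0.0514, and C1ra was lost in 7 of 10 omissions. Of 23 cytokine genes of the interleukin 1 and inflammatory list 1 rose, with a median of 0.13 (unadjusted, 8 higher and 1 lower). It was Csf2, the growth factor GM-CSF on which alveolar macrophages depend, with M of 1.27 to 1.59 in controls and 1.48, 2.01, 2.17, 2.26 and 2.47 in high-dose dams (log2 0.68 ± 0.12, adjusted p = 0.0206). Dam 60 lay within the controls and the other 4 above them, and the call ended without high-dose dam 62, 63 or 65 or control 7, 15 or 18. The interleukin 1 antagonist Il1rn differed by 0.53 ± 0.12 (adjusted p = 0.0536) and the epithelial alarmin Il33 by 0.56 ± 0.16 (adjusted p = 0.139). Of 36 interferon-stimulated genes 0 passed by limma (unadjusted, 7 higher and 0 lower), 32 were above 0 and the median was 0.12. The sensor of viral RNA Ddx58 and the T cell costimulator Tnfrsf4 were chosen after their values were seen and rose by 0.52 ± 0.11 (adjusted p = 0.047) and 0.42 ± 0.08 (adjusted p = 0.0323). The call of Ddx58 ended in 8 and that of Tnfrsf4 in 7 of 10 omissions, and the 4 probes of Ddx58 gave 0.07 to 0.52.

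Several antibody transcripts rose, and no B cell marker passed. Jchain, which joins the units of IgA and IgM, had M of -2.43, -2.32, -2.18, -1.82 and -0.55 in controls and -1.02, -0.15, 0.03, 0.16 and 0.57 in high-dose dams. Control 4 lay above high-dose dam 64 and the other controls lay below every high-dose dam. Jchain rose 3.43-fold (log2 1.78 ± 0.36, adjusted p = 0.036), and without control 4 the adjusted p was 0.0063. Jchain was not called when control 7, 14, 15 or 18 or any of high-dose dams 62, 63 and 65 was left out. Of 12 plasma cell markers 1 rose and 12 were above 0, with a median of 0.28. Tnfrsf17, the survival receptor of plasma cells, differed by 0.81 ± 0.18 (adjusted p = 0.0527), and Derl3, of their secretory pathway, by 0.62 ± 0.20 (adjusted p = 0.183). Of 21 B cell markers 0 passed by limma (unadjusted, 0 either way), with a median of 0.04, and their mean per dam was 0.69 to 1.37 in controls and 0.57 to 1.60 in high-dose dams. The 5 measured markers of lymph node and thymus ranged from 0.84 to 1.19 in controls and from 0.80 to 1.58 in high-dose dams, with dam 65 the highest, and their part in the antibody result was not tested.

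The array also carries antibody chain transcripts that have no gene symbol, and these were collected by their descriptions after their values had been seen. Of 75 tested, 4 rose and 74 were above 0, with a median of 0.59, against -0.0017 over all genes. Of the 75, 11 were not well above background on at least 3 control arrays but were in the high-dose group, through which they could pass the brightness filter. Over the other 64, 63 were above 0, with a median of 0.66. Over all 75, the 11 included, the mean per dam was -0.24 to 0.30 in controls and 0.09, 0.14, 0.74, 0.79 and 1.38 in high-dose dams. This mean was higher in the high-dose dam on 4 of 5 slides. High-dose dams 60 and 64 lay within the range of the controls, and the other 3 lay above it. M19902, described as a rearranged gamma heavy chain, rose from 0.30, 0.61, 0.68, 0.71 and 0.84 to 1.5, 1.53, 1.63, 1.65 and 2.19 (2.10-fold, log2 1.07 ± 0.16, adjusted p = 0.0056). U10410, described as a single chain of heavy and light variable domains, rose 2.27-fold (adjusted p = 0.0137), and the heavy chain transcript LOC628098 rose 1.96-fold (adjusted p = 0.0317). LOC668423, described as the mRNA of a C-Fcgamma fusion protein and counted among the 75, rose 1.51-fold (adjusted p = 0.0052). The groups overlapped for U10410, through control 4, and not for the other 3. U10410 was lost without high-dose dam 62 or control 15 or 18, and LOC628098 in 7 of 10 omissions. Variable regions resemble each other, so the 75 probes may share targets and are not taken as independent measurements.

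**Figure D3:**
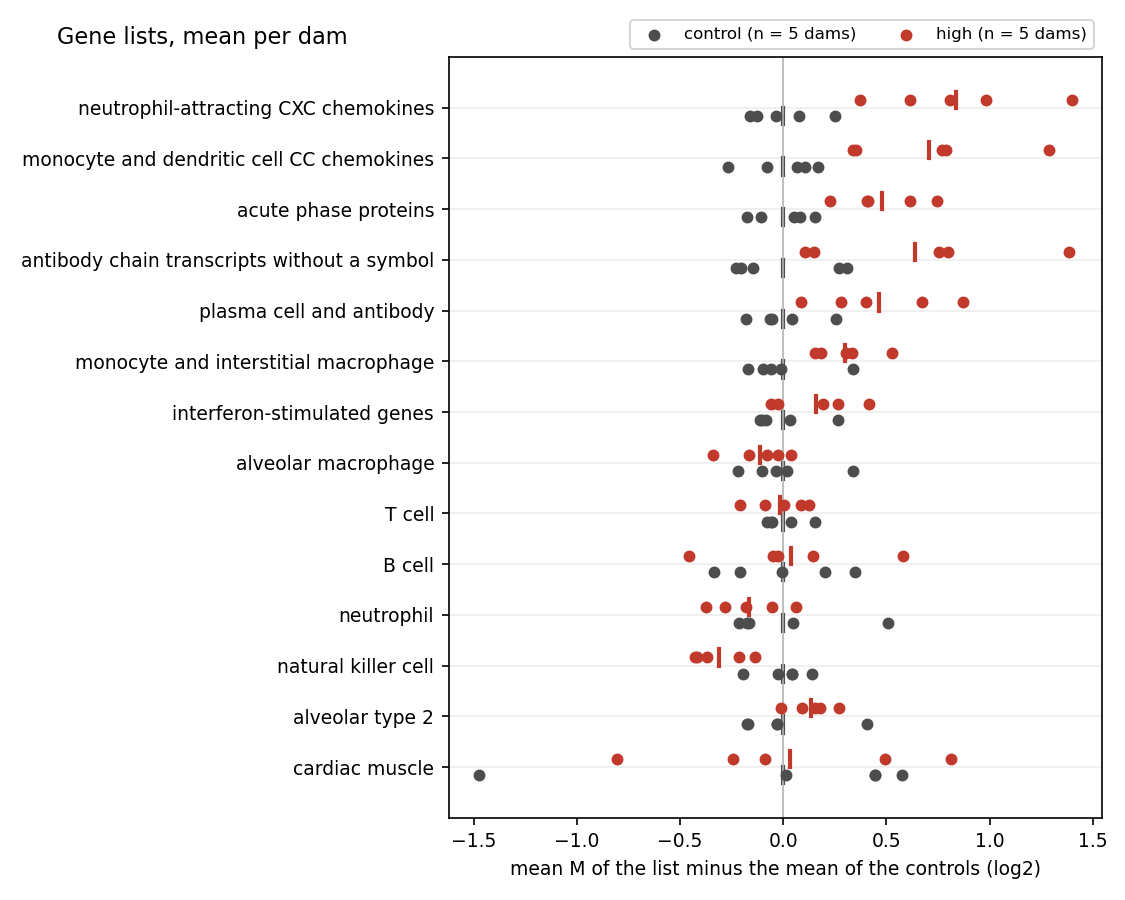
The mean M over the tested members of 14 gene lists, minus the mean of the controls (x axis, log2), is plotted with 1 point per dam, controls in grey, high-dose dams in red and short bars for the group means. The 5 high-dose dams lie above the 5 controls for both chemokine lists and for acute phase proteins, overlap with the controls for T and B cells, and control 14 lies far to the left for heart muscle.

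Among the falls of the main analysis, receptors of natural killer cells formed the clearest group. These cells kill stressed or infected cells and carry inhibitory and activating lectin receptors of the Klr families. Of 25 natural killer cell markers 3 fell, 0 rose and 21 were below 0, with a median of -0.34 (unadjusted, 0 higher and 15 lower). Their mean per dam was 1.48 to 1.82 in controls and 1.25 to 1.54 in high-dose dams, lower in the high-dose dam on 4 of 5 slides. On slide 1 the high-dose dam was higher by 0.06. M of Klrb1a, a lectin receptor of the NKR-P1 family, was 1.79, 2.03, 2.04, 2.06 and 2.17 in controls and 1.32, 1.32, 1.37, 1.57 and 1.63 in high-dose dams. The groups did not overlap, and the gene fell by 0.57 ± 0.10 on the log2 scale (1.49-fold, adjusted p = 0.0179). M of Klra8, the activating receptor Ly49H, was 3.03, 3.06, 3.18, 3.37 and 3.48 in controls and 2.18, 2.22, 2.30, 2.59 and 2.98 in high-dose dams. It fell by 0.77 ± 0.14 (1.70-fold, adjusted p = 0.0238), with dam 60 just under the lowest control.

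Klra7 and Klra16, of the same Ly49 family, fell by 0.64 ± 0.14 (adjusted p = 0.0484) and 0.53 ± 0.11 (adjusted p = 0.0402), each with overlap by control 4. Klra genes are near-identical copies, so these 3 Klra calls may rest on shared transcripts, and the 2 probes of Klra16 gave -0.53 and -0.05. Other members did not pass, of which Klrb1c, Gzmb and Gzma were chosen after their values were seen: perforin, Prf1, through which these cells kill, differed by -0.61 ± 0.13 (adjusted p = 0.051, no overlap), Klrb1c, the NK1.1 antigen, by -0.61 ± 0.14 (adjusted p = 0.0639), granzyme B, Gzmb, by -0.51 ± 0.13 (adjusted p = 0.116) and granzyme A, Gzma, by -0.50 ± 0.15 (adjusted p = 0.157). The 2 probes of Klrb1c gave -0.61 and -0.0071. Of 26 T cell markers 0 passed by limma (unadjusted, 1 higher and 2 lower), with a median of -0.01, and Cd8b1, of cytotoxic T cells, differed by -0.42 ± 0.14 (adjusted p = 0.226). Klrb1a was not called without high-dose dam 63 or control 15 or 18. Klra8 was also lost without high-dose dam 62 or 65, Klra7 in 8 of 10 omissions and Klra16 in 7. Over 27 alternatives of processing and sample set, Klrb1a passed in 20 and Klra8 in 18 (limma, adjusted p up to 0.358 and 0.921). With normexp fitted on all spots, the software's log10 ratio or the Cy5 channel alone, 0 genes fell.

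Genes of alveolar macrophages and eosinophils fell in 2 cases. Siglecf, a sialic acid receptor found on both, had M of 2.49, 2.49, 2.53, 2.65 and 3.09 in controls and 1.60, 1.62, 1.72, 1.88 and 2.38 in high-dose dams. Control 14 was the highest control and dam 60 the highest high-dose dam, and the groups did not overlap. Siglecf fell by 0.81 ± 0.16 on the log2 scale (1.75-fold, adjusted p = 0.0317), by between 0.27 and 1.48 within slides. Its probe lies at chr7:39534617-39534676 (mm7). Without control 14 the adjusted p was 0.0602, and the call also ended without high-dose dam 62, 63 or 65 or control 15 or 18. Ear6, an eosinophil-associated ribonuclease, had M of 2.62, 2.81, 2.84, 2.87 and 2.91 in controls and 2.04, 2.09, 2.19, 2.23 and 2.54 in high-dose dams, without overlap. It fell by 0.59 ± 0.10 (1.51-fold, adjusted p = 0.0184). The second probe of Ear6 gave -0.08, the Ear genes are close copies, and the call ended without high-dose dam 62, 63 or 65 or control 15 or 18.

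Siglecf and Ear6 stand in both marker lists. Of 23 alveolar macrophage markers 2 fell, 0 rose, 10 were above 0 and the median was -0.03 (unadjusted, 1 higher and 5 lower), with means per dam of 2.59 to 3.15 in controls and 2.47 to 2.85 in high-dose dams. The keratin Krt79 and the ribonuclease Ear1, both markers of these macrophages, differed by -0.45 ± 0.18 (adjusted p = 0.301) and -0.41 ± 0.20 (adjusted p = 0.389). Ctsk, in the same list, was above 0. Of 13 eosinophil and mast cell markers the same 2 fell, with a median of -0.02 (unadjusted, 0 higher and 2 lower). Of 18 dendritic cell markers 1 fell, with a median of -0.01. It was Siglech, a receptor of plasmacytoid dendritic cells, with M of 0.58, 0.72, 0.73, 0.74 and 0.86 in controls and 0.33, 0.37, 0.42, 0.47 and 0.47 in high-dose dams. It fell by 0.31 ± 0.06 (1.24-fold, adjusted p = 0.0218) without overlap, and was not called without high-dose dam 62, 63 or 65 or control 7 or 18. Cd207, the langerin of a lung dendritic cell subset, differed by 0.61 ± 0.14 (adjusted p = 0.0653). Of 17 neutrophil markers 1 rose, which was Lcn2, and 12 were below 0, with a median of -0.13. The granule protein genes Camp and Ngp differed by -1.21 ± 0.31 (adjusted p = 0.112) and -0.96 ± 0.27 (adjusted p = 0.146), and the lowest control lay above all high-dose dams for both.

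**Figure D4:**
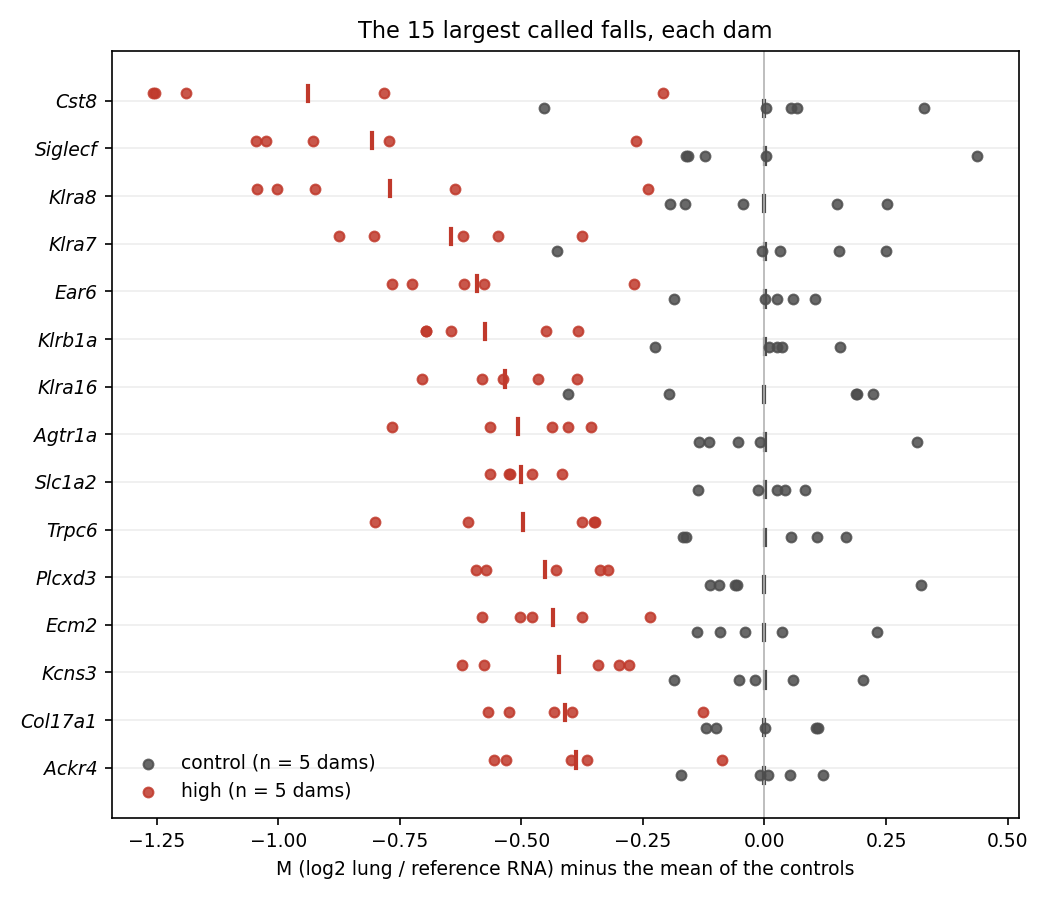
M minus the mean of the controls (x axis, log2) is shown for the 15 largest called falls with a symbol, 1 point per dam, with controls in grey, high-dose dams in red and short bars for the group means. The points of the groups overlap for Cst8, Klra7, Klra16 and Ackr4, and stay apart for Siglecf, Klra8, Ear6 and Klrb1a.

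The remaining large falls were of genes with varied roles. M of Agtr1a, the angiotensin II receptor of pericytes and smooth muscle, was 3.00, 3.02, 3.08, 3.13 and 3.45 in controls and 2.37, 2.57, 2.70, 2.73 and 2.78 in high-dose dams. It fell by 0.51 ± 0.10 (1.42-fold, adjusted p = 0.036) without overlap, and its 2 probes gave -0.51 and -0.45. Trpc6, a cation channel of vascular smooth muscle, fell by 0.50 ± 0.10 (adjusted p = 0.0402) and Kcns3, a modulatory potassium channel subunit, by 0.42 ± 0.09 (adjusted p = 0.0483). Col17a1, a collagen of epithelial hemidesmosomes, fell by 0.41 ± 0.08 (adjusted p = 0.036) and the matrix protein Ecm2 by 0.43 ± 0.08 (adjusted p = 0.0315), but the second probes of Col17a1 and Ecm2 each gave a difference near 0, -0.06 and -0.05. Ackr4, a scavenging receptor for the chemokines CCL19 and CCL21, fell by 0.39 ± 0.08 (adjusted p = 0.0431). Plcxd3, a phospholipase-like protein, fell by 0.45 ± 0.09 (adjusted p = 0.0315), and Slc1a2, a glutamate transporter, by 0.50 ± 0.09 (adjusted p = 0.0268). The 3 probes of Slc1a2 gave -0.50 to 0.04. The largest fall that passed, by 0.94 ± 0.18 (adjusted p = 0.0323), was that of Cst8, a cystatin, whose groups overlapped and whose difference was 0.17 in the ratio of the scanner software. Each of these 9 calls was lost in 6 to 9 of the 10 omissions. Of 23 smooth muscle and fibroblast markers 0 passed by limma (unadjusted, 1 higher and 2 lower), with a median of -0.07.

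Several lists tied to particle toxicity showed few or no calls. Of 33 antioxidant and NRF2 target genes 1 rose, with a median of -0.0001. It was Slc7a11, the cystine importer, which differed by 0.50 ± 0.10 (adjusted p = 0.0338, no overlap) with 3 probes from -0.06 to 0.50, and whose call was lost in 7 of 10 omissions. The glutathione synthesis gene Gclc differed by 0.43 ± 0.16 (adjusted p = 0.245). Of 11 aryl hydrocarbon receptor targets 0 passed by limma (unadjusted, 2 higher and 1 lower), with a median of 0.06. The list's oxidases Cyp1a1 and Cyp1b1 differed by -0.45 ± 0.18 (adjusted p = 0.298) and 0.52 ± 0.20 (adjusted p = 0.274). Of 29 p53 and DNA damage genes 0 passed by limma (unadjusted, 2 higher and 1 lower), with a median of 0.02. The count was also 0 by limma for 38 proliferation genes (unadjusted, 0 and 1, median -0.07), 36 collagen and matrix genes (1 and 0, median -0.04) and 26 sterol genes (7 and 0, median 0.12). Mmp12, the macrophage elastase, had M of -0.18 to -0.03 in controls and 0.07, 0.34, 0.66, 1.52 and 1.57 in high-dose dams, a difference of 0.92 ± 0.20 that did not pass (adjusted p = 0.0562) although the groups did not overlap. It is 1 of 19 metalloproteinases and inhibitors, of which 0 passed by limma (unadjusted, 5 higher and 0 lower), with a median of 0.14. Markers of type 2 cells had a median of 0.17 over 20 members, which became -0.11 when the arrays were scaled to equal spread, and those of type 1 and airway cells had medians of 0.0002 and 0.03.

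The same genes were measured in dams given lower doses, 11 and 54 µg in total, and all 3 doses were compared with the same controls. At the medium dose 1 of 19914 genes passed (0.00502%). Of the 5 medium-dose arrays, those of dams 49 and 50 were alone on slide 6 and were scanned on a separate day. Their headers name Feature Extraction 10.1.1.1 and build mm8, and 64.0% and 65.6% of their probes were well above background. The part of slide 6 in the medium-dose values was not tested. Over the 38 rises, which were chosen at the high dose, the median difference was 0.64 at the high, 0.12 at the medium and 0.09 at the low dose, and over the 27 falls it was -0.41, -0.22 and -0.14. M of Cxcl5 was -3.31 ± 0.23 (SD, n = 5) in controls, -3.31 ± 0.14 at the low, -3.40 ± 0.28 at the medium and -0.25 ± 1.26 at the high dose. M of Trem2 was -1.42 ± 0.19, -1.51 ± 0.10, -1.30 ± 0.12 and -0.43 ± 0.38. The low-dose and medium-dose dams thus lay within or near the range of the controls for Cxcl5 and Trem2. Siglecf was 2.65 ± 0.25 in controls, 2.15 ± 0.21 at the low, 2.26 ± 0.26 at the medium and 1.84 ± 0.32 at the high dose. Siglech, the gene that passed at the medium dose, was lowest there, at 0.26 ± 0.10 against 0.73 ± 0.10 in controls (difference -0.46 ± 0.06, SE, adjusted p = 0.0024), with 0.40 ± 0.07 at the low and 0.41 ± 0.06 at the high dose. The difference of Siglech between the medium and the high dose was not tested.

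**Figure D5:**
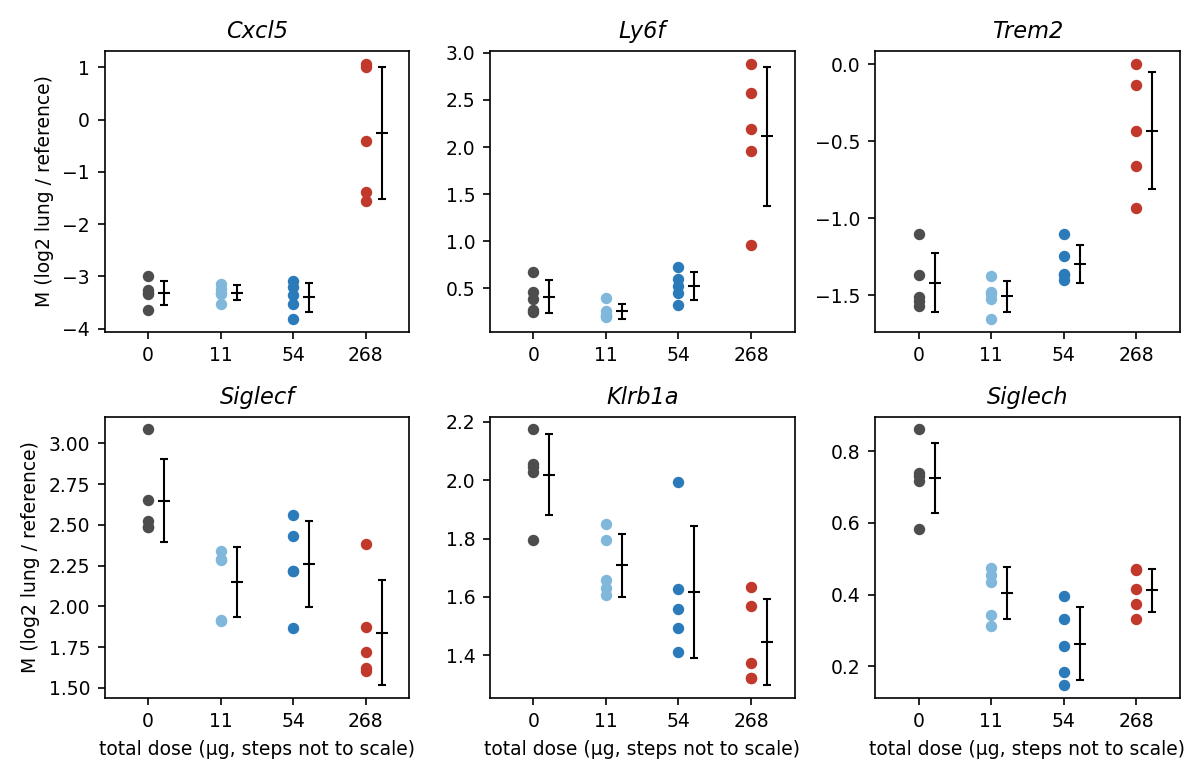
M (y axis, log2 lung over reference) of 6 genes is plotted against the total dose (x axis, in µg, as equal steps), with 1 point per dam and the mean ± SD of 5 dams beside the points. Cxcl5, Ly6f and Trem2 are high at 268 µg alone, whereas for Siglecf, Klrb1a and Siglech the means at 11 and 54 µg also lie below that of the controls. All 6 genes were chosen at the high dose against these same controls, so the lower doses are not an independent check. At the lower doses only Siglech passed, at 54 µg.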

How the data were processed

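Lung RNA of individual dams was measured on two-colour Agilent mouse 4x44K arrays, with the lung in Cy5 and universal reference RNA in Cy3 on each array, per the labels. The authors deposited, per array, the Feature Extraction spot table, whose signals are scanner intensity values and whose dye ratio is on the log10 scale per the file headers. They also deposited a table of log2 ratios, with no statement of how they were normalised in the sources used here. Its column medians on the 10 arrays lie between -0.0489 and -0.0315. On these arrays its values correlate at 0.962 to 0.992 with the log2 of lung over reference median signals, no background subtracted. The headers name Feature Extraction 9.5.1.1 and build mm7 for these arrays, whereas the labels name 9.5.3.1. The labels' treatment protocol and the design text differ in the gestational days they list, and the latter's are printed.

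Median signals were background-corrected with normexp in limma 3.58.1 (R 4.3.3, offset 50), fitted in each channel without its 5 lowest spots, because 1 low-dose array's model rested on 1 spot. Ratios were loess-normalised within arrays, without scaling between them. Spots marked as outliers were dropped, and replicate spots averaged. Probes well above background on at least 3 of 5 arrays of a group were kept, and each gene took its brightest probe, with a value on at least 16 arrays. Probes were named by accession, symbol or synonym through the RefSeq gene table, and 15619 of 19914 genes had a symbol. One limma model (lmFit, eBayes, 16 residual degrees of freedom) was fitted over all 20 arrays and high minus control was tested two-sided. Simulated data of this comparison held 19914 genes. Of these, 80% of 100 genes changed by 0.5 and 97% of 100 changed by 1 (log2) were recovered, with 6 false among 183 calls. In the measured arrays the spread differed between groups for some genes, such as Cxcl5 (SD 0.23 in controls and 1.26 at the high dose). Whether the rates of recovery and of false calls hold for such genes was not tested.

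The members and lists were chosen with earlier results of these data known, so lists are described by counts and medians and not tested. Named genes are the 15 largest rises and falls with a symbol, and, from each list, the 4 members of smallest p and any called member. Not all are printed, and others are introduced as chosen after their values were seen, as were Klrd1, Scarf2 and Olfr1507 of the closing section. Alternatives were other background models, ratio sources, scalings, filters, probe averages, slide and scan blocks, sample sets and the omission of each dam.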

Additional observations from a re-analysis of the deposited data

Results flagged for a closer look

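In 284 groups of 5 dams (genes and list means), 17 had a dam whose gap to the nearest other dam exceeded 0.71 of the range of the group, and chance flags about 1 group in 20. Control 14 held 8 of them. It was the highest control for Siglecf (M 3.09, the others 2.49 to 2.65) and for the interferon-induced Oas2 (0.48, the others -0.40 to -0.15). It was also highest for the means of lymphocyte chemokines (1.40, the others 1.01 to 1.11), lipid and particle uptake receptors (1.73, the others 1.39 to 1.47), eosinophil and mast cell markers (1.88, the others 1.495 to 1.595), type 2 cell markers (3.48, the others 2.90 to 3.05) and lymph node and thymus markers (1.19, the others 0.84 to 0.91). It was lowest for heart muscle markers (0.22, the others 1.71 to 2.27).

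Among the other controls, dam 4 was highest for U10410 (-0.44, the others -1.44 to -1.29), dam 7 for Plcxd3 (1.47, the others 1.04 to 1.09), dam 18 for the olfactory receptor Olfr1507 (0.24, the others 0.10 to 0.11) and dam 15 for Agtr1a (3.45, the others 3.00 to 3.13). Dam 15 was lowest for the growth arrest gene Gadd45g (-0.58, the others -0.35 to -0.27). Among high-dose dams, dam 63 was highest for Ccl12 (2.16, the others 0.88 to 1.15), the metalloproteinase inhibitor Timp1 (-0.91, the others -2.29 to -1.95) and Scarf2 (0.31, the others 0.05 to 0.11). Dam 62 was highest for M19902 (2.19, the others 1.5 to 1.65).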

How the results depend on the processing

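Main counts were 38 rises and 27 falls. No paired analysis was possible because the animal numbers are not shared between groups, and the slide stands in as a block: 79 rises and 56 falls as a fixed term, 114 and 79 as a random one (correlation 0.18). With the scan date as a block they were 57 and 37. Of the main calls, the fixed slide term kept 37 rises and 22 falls, losing Klra7 (adjusted p = 0.0597) and Agtr1a (0.0515) among others, the random term kept 38 and 27, and the scan date kept 37 and 23, losing C1ra (0.0509), Klra7 (0.0658) and Lilra5 (0.0504) among others. Without background subtraction 81 rose and 103 fell (44% of calls higher, against 58.5% in the main analysis), with the deposited log2 values 101 and 106 (48.8%), with scaling between arrays 79 and 85 (48.2%) and with median centring 34 and 9 (79.1%). With normexp fitted on all spots 14 rose and 0 fell (1125 and 870 at an unadjusted p under 0.05), with the software's log10 ratio 9 and 0 (990 and 915), and with the Cy5 channel alone 19 and 0 (457 and 461), all by limma. The 10 arrays alone gave 0 and 1 (1204 and 1120 unadjusted), and with the slide block added, an alternative chosen after seeing the data, 1 and 0 (1448 and 1241). Omitting 1 dam gave 7 to 90 rises and 0 to 60 falls. Of the 38 rises 38 were also called with the deposited table and 14 with normexp fitted on all spots, and of the 27 falls 24 and 0. The other settings gave counts within 1.5 times the main ones: no dim filter 47 and 40, a filter on all 10 arrays 26 and 20, outlier spots kept 38 and 27, the mean of probes 38 and 19, without low-dose dam 27 36 and 24, and without slide 6 28 and 19. The causes were not tested. Differences changed sign for Cst8 (0.17) and Klrd1, a natural killer cell receptor (0.21), in the software ratio, and for Olfr32 (-0.0443) in Cy5 alone. Of 27 alternatives, the added one aside, Cxcl5 and Trem2 passed in 26 (adjusted p up to 0.124 and 0.138), Ly6f in 25 and Siglecf in 17. The 1 alternative in which Cxcl5 and Trem2 failed was that of the 10 arrays alone. Under scaling the medians of type 2, MHC class II and lymphocyte chemokine genes turned to -0.11, -0.06 and -0.03. Scaling and centring moved the median of all genes by less than 0.1.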

Other observations

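Smaller changes passed in genes that belong to no list above, and all of them were chosen after their values were seen. Kif5c, a kinesin motor of neurons, rose by 0.45 ± 0.09 on the log2 scale (1.37-fold, adjusted p = 0.0301), with M of -1.82 to -1.39 in controls and -1.32 to -0.95 in high-dose dams. Tgoln1, a protein of the trans-Golgi network, rose by 0.36 ± 0.08 (adjusted p = 0.0486), and Entpd7, a nucleotidase of inner membranes, by 0.33 ± 0.06 (adjusted p = 0.0206), with 2 probes at 0.10 and 0.33. Gnptab, which tags enzymes for the lysosome, rose by 0.29 ± 0.06 (adjusted p = 0.0441), but its 3 probes ranged from 0.05 to 0.29. The groups did not overlap for Kif5c, Tgoln1 and Entpd7. Each of these 4 calls was lost in 5 to 9 of the 10 omissions of a dam.

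Among the smaller falls, Gria3, a glutamate receptor subunit, fell by 0.35 ± 0.06 (adjusted p = 0.0203) with 3 probes from -0.35 to -0.22, and Lilra5, a receptor of myeloid cells, by 0.31 ± 0.06 (adjusted p = 0.036), with 2 probes at -0.31 and -0.10. Epm2a, the glycogen phosphatase laforin, fell by 0.25 ± 0.05 (adjusted p = 0.0434), and Hlcs, which attaches biotin to carboxylases, by 0.19 ± 0.04 (adjusted p = 0.036). The olfactory receptor Olfr32 rose 1.19-fold (adjusted p = 0.0184). For the 5 genes of this paragraph the groups did not overlap, and the calls were lost in 3 to 9 of the 10 omissions.

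The regulatory T cell factor Foxp3 was well above background on 0 of 5 control and 4 of 5 high-dose arrays, at least 1.18-fold higher in Cy5 signal, with a difference in M that did not pass (0.28 ± 0.08, adjusted p = 0.157). Spp1, the secreted matrix protein osteopontin, differed by 1.08 ± 0.31 (adjusted p = 0.149). Ch25h, which makes 25-hydroxycholesterol, had M of 1.61 to 2.38 in controls and 2.12, 2.76, 2.91, 3.03 and 3.32 in high-dose dams, a difference of 0.89 ± 0.21 (adjusted p = 0.0768).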
